A study of Beta vulgaris with 9 samples.

Results

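The spliced intergenic long non-coding RNAs (lncRNAs) of the sugar beet chromosomes were described across control leaves and leaves challenged with alkaline solution. A member was any transcript typed as intergenic (lincRNA in the transcript table), assembled with 2 or more exons and placed on a chromosome sequence whose name starts with NC. There were 570 members among 6034 intergenic lncRNAs and 8535 lncRNAs in all. The remaining intergenic lncRNAs of the chromosomes, 3203 transcripts, had a single exon, so that 15.1% were spliced. Another 322 spliced intergenic lncRNAs lay on unplaced sequences and were left out by this choice.

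Intergenic lncRNAs are transcribed between protein-coding genes, and in plants most are made by RNA polymerase II, capped and polyadenylated like messenger RNAs. Splicing joins their exons and removes introns, and one locus can yield several isoforms that differ in a splice site, a start or an end. In plants, some act on chromatin, some as decoys of microRNAs and some as precursors of small RNAs, while the role of most is unknown. The tables give no function for the 570 members, so they were ordered here by structure, locus and response.

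Leaves of cultivar KWS0143 were taken at the seedling stage, with an age of 5 weeks in the labels. By the study's methods, all plants were germinated in vermiculite and then irrigated with Hoagland solution. Control plants (C) were taken at day 0, before any alkaline treatment, short-term plants (ST) after 3 days and long-term plants (LT) after 7 days in 75 mM mixed Na2CO3 and NaHCO3, with 3 libraries per group. Because no untreated plants of day 3 or day 7 were sequenced, the treatment, the leaf age and the day of harvest cannot be told apart. The labels do not say whether the 3 libraries of a group came from separate plants, and p-values measure the spread between these libraries only.

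The values are FPKM, fragments scaled to transcript length and to the mapped fragments of the library, in total RNA freed of ribosomal RNA. No read counts were used, so the depth of each library and the counting error of a low FPKM are unknown, and a value of 0 can be a failed estimate. The summed FPKM of 26 genes whose product names mark leaf mesophyll (antenna proteins, the small subunit of Rubisco, photosystem I subunits and oxygen-evolving enhancer proteins) was between 56049 and 71835 in control, 37588 and 50814 in short-term and 28819 and 44747 in long-term libraries. These ranges did not overlap between control and alkaline-challenged leaves, and their part in the results below was not tested. Of the lists for other cells, 1 gene of the dividing-cell list had a matching product name (3.52 to 4.31, 4.55 to 6.07 and 4.58 to 5.98 FPKM in control, short-term and long-term libraries), and no gene matched the phloem or root endodermis lists. In bulk leaves, fewer cells of a type and less RNA per cell cannot be told apart.

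The sequences of the members themselves are not used here. For LNC_004675, whose locus has isoforms called in opposite directions as described below, the study's quantitative PCR primers give short stretches of sequence. The transcript lies at NC_025819.2:24628428-24629243 on the plus strand, has 354 nucleotides in 2 exons and contains introns of 462 bases in total. The primers are written from 5′ to 3′, and the reverse primer is the strand opposite to the transcript.
LNC_004675 forward: ttcctttcgatgaatacacgg
LNC_004675 reverse: agggagccattcctttgact
LNC_004676 and LNC_004677 have the same start, end, length and number of exons as LNC_004675, and whether the primer pair separates these isoforms cannot be read from the tables.

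The 570 members came from 471 loci, 407 of which gave 1 member and 64 of which gave several. The 64 loci held 163 members, with at most 7 at one locus (XLOC_029011). Most members were simple in structure: 466 had 2 exons, 77 had 3 and 27 had 4 or more, up to 8 exons in LNC_002666. The median length was 653 nucleotides, against 240 in single-exon lncRNAs. The median listed reading frame, taken here as a number of codons, was 88 in members and 58 in single-exon lncRNAs. It was over 100 in 33.9% of members against 7.24% of single-exon lncRNAs. In 7 members it was over 300, up to 1044. By the study's methods, transcripts that CNCI, CPC, Pfam Scan or PhyloCSF predicted as coding had been removed. A type that rests on such predictions does not settle that every member is non-coding. The median span on the chromosome was 1891 bases, and LNC_005390 had the longest span, 37981 bases. Total intron length ranged from 20 to 37479 bases with a median of 775.5. In 60 members with 2 exons the intron was shorter than 60 bases, and in 24 members it was shorter than 30. The strands were balanced, with 280 members on the plus strand and 290 on the minus strand.

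Members were found on all 9 chromosome sequences, from 34 on NC_025814.2 to 90 on NC_025817.2. Their density, taken over the length up to the last annotated feature, was lowest on NC_025812.2 with 1.23 per Mb and highest on NC_025820.2 with 1.83 per Mb. The share of intergenic lncRNAs that were spliced was 19.0% on NC_025819.2 and 17.4% on NC_025820.2, and between 13.6% and 16.6% on the other 7 sequences. A gene lay within 10 kb of 364 members (63.9%) and within 1 kb of 97 members. Although typed as intergenic, 5 members overlapped the outer edges of a gene, 2 of them on the same strand. In 47 members a gene lay within 1 kb upstream on the same strand. The files name a product for 132 of the 486 genes within 10 kb.

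More members passed 0.5 FPKM in each alkaline-challenged library than in any control library. In control replicates 1 to 3, 231, 223 and 196 members were over 0.5 FPKM. In short-term libraries these numbers were 242, 255 and 261, and in long-term libraries 260, 287 and 242. Every alkaline-challenged library was above every control library, with means of 217 ± 18.3, 253 ± 9.71 and 263 ± 22.6 (SD, n = 3), and the 2 alkaline groups overlapped. An exact permutation test, two-sided, gave p = 0.10 for each alkaline group against control, the smallest value that 3 against 3 libraries allow, and p = 0.70 for long-term against short-term leaves. After scaling by median ratios the long-term excess over control fell from 46.3 to 15.7 members (exact permutation p = 0.30). Single-exon lncRNAs showed a similar order, with 15.5% to 18.5% over 0.5 FPKM in control, 18.4% to 21.2% in short-term and 19.3% to 20.9% in long-term libraries (exact permutation p = 0.20 and 0.10 against control). Whether the 2 classes differed in this was not tested. The number of members listed at 0 was 154 or 155 in each control library, 127 to 147 in short-term and 121 to 127 in long-term libraries.

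**Figure D1:**
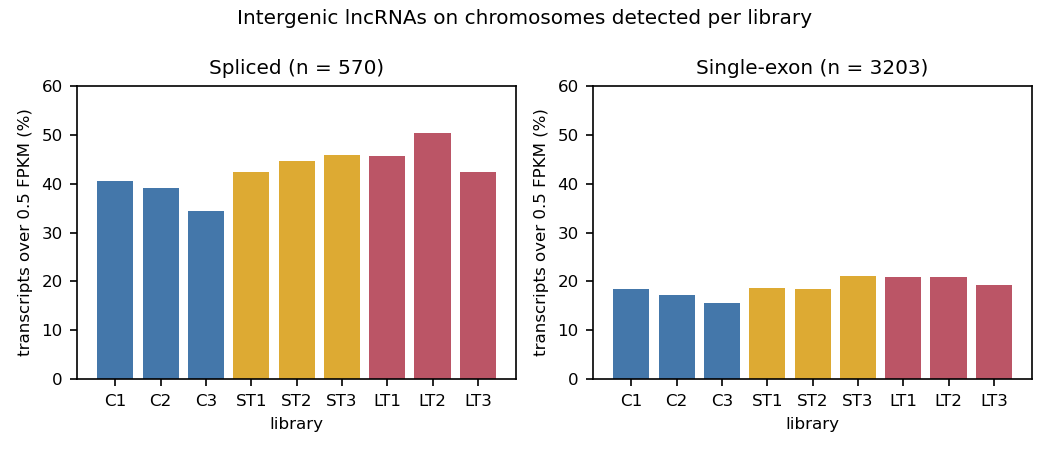
Share of spliced (left) and single-exon (right) intergenic lncRNAs of the chromosomes with more than 0.5 FPKM, as bars in percent for each of the 9 libraries (C control in blue, ST 3 days in yellow, LT 7 days in red). The spliced share runs from 34.4% to 50.4% and the single-exon share from 15.5% to 21.2%, and the spliced share is the higher one in every library.

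Spliced lncRNAs passed 0.5 FPKM more often than single-exon ones. On average over the 9 libraries, 42.8% ± 4.57 (SD, n = 9) of members and 19.0% ± 1.87 of single-exon lncRNAs did so. The difference was 23.9 percentage points, between 18.9 and 29.5 in single libraries, and it was positive in 9 of 9 libraries. An exact sign-flip permutation test, two-sided, gave p = 0.0039, the smallest value that 9 libraries allow. The libraries share the same transcripts, so the test covers libraries and not transcripts. Among transcripts of 200 to 400 nucleotides the difference was smaller, 14.6 points, with 157 members and 2871 single-exon lncRNAs (27.9% and 13.3%). Among transcripts over 0.5 FPKM, the median level was close in both classes, between 1.10 and 1.31 FPKM in members and between 0.892 and 1.23 FPKM in single-exon lncRNAs.

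Within the members, detection was similar across exon numbers and intron lengths, as a description with no test. The mean of at least 1 group exceeded 0.5 FPKM in 57.5% of members with 2 exons, 58.4% with 3 and 66.7% with 4 or more. This held for 57.0% of members with under 100 bases of intron, 57.7% with 100 to 1000 bases and 58.8% with more. Members above this limit were longer, with a median of 817 nucleotides against 477.

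In all, 331 of 570 members exceeded 0.5 FPKM on average in some group and were tested. They came from 272 loci. Of these, 165 passed 0.5 in all 3 groups, 40 in both alkaline groups only, 52 in long-term leaves only, 28 in short-term leaves only and 13 in control leaves only. The other 33 passed in control and 1 alkaline group. A member that passed only through the group where it was high had to differ, so the direction of the tested members as a whole is not independent of this choice. The same limit holds for the p-value of a single member that passed through 1 group only. Changes were fitted on log2(FPKM + 1), a scale that makes changes of low transcripts look smaller. Genes as a whole moved by a median of 0.11 (log2) after 3 days, 0.26 after 7 days and 0.15 between the alkaline groups. Each relative log2 change below is the fitted change minus this median, with the SE of the fitted change, and the adjusted p from limma tests the change before the subtraction.

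After 3 days, 4 of the 331 members passed an adjusted p of 0.05, of which 2 rose (0.604%) and 2 fell (0.604%). Over all 1914 lncRNAs tested, 0.261% rose and 0.209% fell. The median fitted log2 change was 0.11 in members and 0.03 in all lncRNAs tested.

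LNC_004237 (NC_025818.2:1541249-1544916, minus strand, 1400 nucleotides in 2 exons) had 6.48, 4.44 and 3.67 FPKM in control and 21.4, 27.7 and 22.0 FPKM in short-term libraries. The groups did not overlap, and the relative log2 change was 1.98 ± 0.24 (SE, limma adjusted p = 0.012). It stayed as high after 7 days, at 28.4, 20.7 and 18.7 FPKM (relative log2 change 1.76 ± 0.24, adjusted p = 0.0025), so it was the member that rose at both times. LNC_005395, an isoform of XLOC_029011, was listed at 0 in all 3 control libraries and had 25.6, 6.55 and 25.8 FPKM in short-term libraries (adjusted p = 0.048). It was at 0, 0 and 4.71 FPKM in long-term libraries, which overlapped with control.

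LNC_005332 (NC_025820.2:35511582-35524341, plus strand, 3 exons) had 94.6, 70.2 and 107 FPKM in control, 34.1, 26.1 and 38.4 in short-term and 26.9, 25.6 and 32.4 in long-term libraries. All 6 alkaline-challenged libraries were below all controls. Its relative log2 change was -1.54 ± 0.21 after 3 days (adjusted p = 0.037) and -1.89 ± 0.21 after 7 days (adjusted p = 0.0031). LNC_004949 (NC_025819.2:22760304-22761284, minus strand) had 56.3, 58.2 and 82.4 FPKM in control, 18.8, 26.8 and 29.3 in short-term and 19.6, 22.1 and 27.9 in long-term libraries. Again no alkaline-challenged library reached a control one, and the relative log2 change was -1.47 ± 0.23 (adjusted p = 0.048) and -1.71 ± 0.23 (adjusted p = 0.0084).

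These calls after 3 days were close to the threshold. Without control replicate 3 or without short-term replicate 2, 0 members passed in limma. In the fit of all libraries, 27 of the 331 members were higher and 10 lower at an unadjusted p under 0.05. Of all 1914 lncRNAs tested, 124 (6.48%) were higher and 134 (7%) lower at this limit. Without short-term replicate 1 or 3, 1 member passed. Over the 9 fits that each left out 1 library, LNC_004237 kept its day 3 call in 7 and LNC_005332 in 2. LNC_005395 kept its day 3 call in 1 and LNC_004949 in 0.

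Members next in order of p that did not pass included LNC_005253 (6 exons), at 3.99, 5.08 and 4.62 FPKM in control and 0.696, 0.781 and 0.748 FPKM in short-term libraries. These groups did not overlap (relative log2 change -1.78 ± 0.42, adjusted p = 0.14), and long-term libraries at 4.63, 0.453 and 2.97 FPKM spanned both. LNC_001308 had 25.6, 21.0 and 56.3 FPKM in control and 10.7, 10.6 and 9.47 in short-term libraries (adjusted p = 0.19). LNC_005764 had 0.0412, 0 and 0.109 FPKM in control and 1.25, 1.05 and 1.56 in short-term libraries, with 1.13, 0 and 0 after 7 days (adjusted p after 3 days 0.14). These members were named for their small p, so the distance of their short-term libraries from control is not independent of this choice. Among all 331 members tested, short-term libraries did not overlap with control in 41 that were higher and 15 that were lower. Over all 1914 lncRNAs tested, these numbers were 203 and 211.

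After 7 days, 21 of the 331 members passed, 16 of which rose (4.83%) and 5 of which fell (1.51%). Over all lncRNAs tested, 3.61% rose and 3.92% fell. The median fitted log2 change was 0.19 in members and 0.11 in all lncRNAs. It was 0.04 and -0.06 after median-ratio scaling, and 0.29 and 0.21 at the same total FPKM. Long-term libraries did not overlap with control in 57 members that were higher (17.2%, against 16.1% of all lncRNAs) and in 21 that were lower (6.34%, against 12.5%). The 21 members belonged to 19 loci, 15 had 2 exons, and 3 were listed at 0 in all control libraries. Both falls and 1 rise of day 3 were among them.

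**Figure D2:**
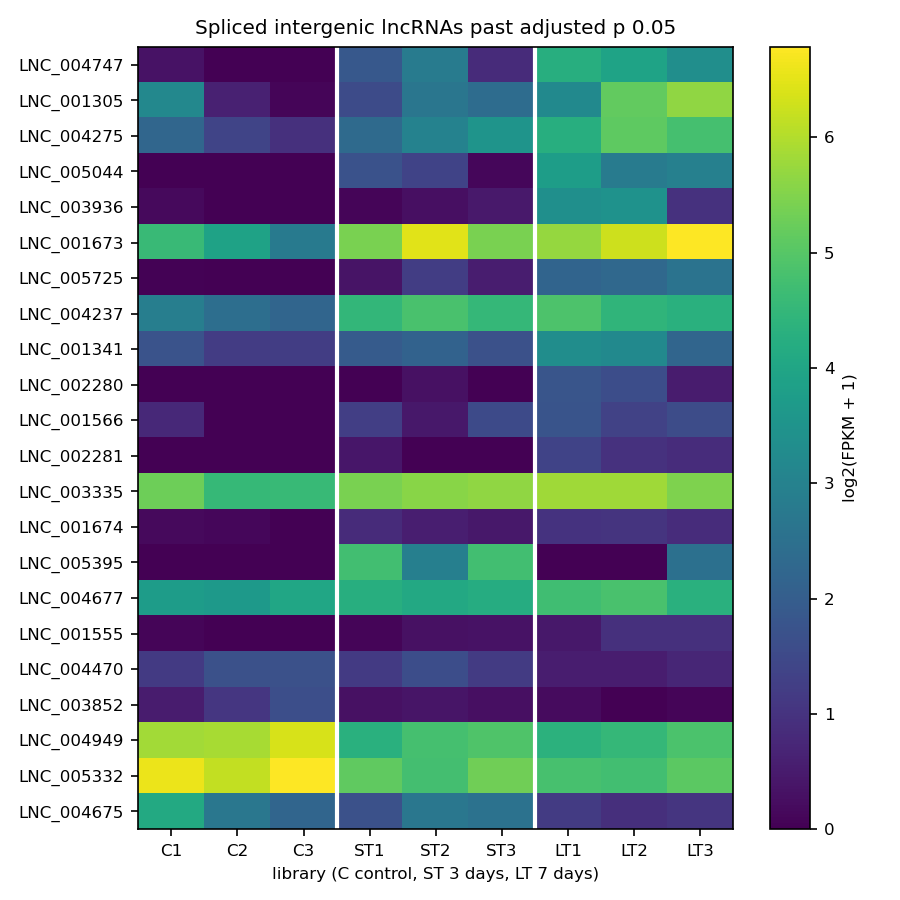
Levels of the 22 members that passed an adjusted p of 0.05 after 3 or 7 days, as log2(FPKM + 1) in each library (columns, C control, ST 3 days, LT 7 days), ordered by the relative log2 change after 7 days. Brighter colour is a higher level. LNC_004747 and LNC_005044 in the upper rows are dark in control and brighter in long-term libraries, and LNC_004949 and LNC_005332 near the bottom are brightest in control.

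Several members that rose after 7 days were low in control, some of them near or at 0, and stepped up through day 3. LNC_005725 (NC_025820.2:39740758-39741451, minus strand, 461 nucleotides) had 0.0299, 0 and 0 FPKM in control, 0.272, 1.35 and 0.450 in short-term and 3.52, 3.92 and 4.99 in long-term libraries. The 3 groups were fully separated, and its long-term change had the smallest adjusted p among members (relative log2 change 2.08 ± 0.25, adjusted p = 0.0014). LNC_004275 (NC_025818.2:7049736-7050676, minus strand) had 3.73, 1.60 and 0.917 FPKM in control, 4.09, 7.05 and 10.4 in short-term and 18.2, 33.3 and 26.7 in long-term libraries. These groups were also separated, with a relative log2 change of 2.94 ± 0.40 after 7 days (adjusted p = 0.0029).

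LNC_004747 (NC_025819.2:34505877-34506947, plus strand) had 0.258, 0 and 0 FPKM in control, 2.65, 6.12 and 0.776 in short-term and 18.0, 14.3 and 9.12 in long-term libraries (relative log2 change after 7 days 3.47 ± 0.45, adjusted p = 0.0027). Its assembled intron had only 20 bases. LNC_005044 (NC_025819.2:34483760-34485839), less than 25 kb away on the minus strand, was listed at 0 in all control libraries and had 2.25, 1.56 and 0.0794 FPKM in short-term and 12.6, 6.12 and 6.81 in long-term libraries (adjusted p = 0.0029). Both were lowest of the short-term libraries in replicate 3. The other 2 isoforms of the LNC_005044 locus, XLOC_027280, were at 0 in control too. LNC_005042 was above 0 in long-term replicate 2 only (31.8 FPKM), and LNC_005043 reached 39.0 FPKM in long-term replicate 1 and 7.54 FPKM in short-term replicate 2 but stayed at or below 0.193 FPKM in the other libraries.

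LNC_003936 had 0.118, 0 and 0 FPKM in control, 0.0647 to 0.381 in short-term and 9.36, 9.95 and 0.958 in long-term libraries (relative log2 change 2.28 ± 0.56, adjusted p = 0.027). Long-term replicate 3 was far below the other 2 but above every control. LNC_003936 was tested only through its long-term level, so its p-value is not independent of that choice. LNC_001305, at 8.01, 0.551 and 0.0644 FPKM in control and 8.25, 34.8 and 49.6 FPKM in long-term libraries, was separated from control only narrowly (relative log2 change 3.12 ± 0.84, adjusted p = 0.040). LNC_001341 had 2.34, 1.29 and 1.33 FPKM in control and 9.09, 8.36 and 3.61 FPKM in long-term libraries (relative log2 change 1.27 ± 0.32, adjusted p = 0.021).

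LNC_001673 and LNC_001674 overlap by 1096 bases on the plus strand of NC_025815.2 and rose together. LNC_001673 had 23.1, 14.0 and 5.80 FPKM in control, 41.8, 88.4 and 41.4 in short-term and 51.8, 76.0 and 109 in long-term libraries (relative log2 change after 7 days 2.24 ± 0.48, adjusted p = 0.016). LNC_001674 stayed low, at 0.0127 to 0.126 FPKM in control and 0.813 to 1.01 FPKM in long-term libraries (relative log2 change 0.59 ± 0.16, adjusted p = 0.016). In both, short-term libraries already lay above all controls, without passing the test (adjusted p = 0.14 and 0.25).

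All 4 isoforms of XLOC_012980, which spans 20441162 to 20448772 on NC_025816.2, were listed at 0 in all control libraries. LNC_002280 had 2.46, 2.05 and 0.424 FPKM and LNC_002281 had 1.60, 0.937 and 0.804 FPKM in long-term libraries (adjusted p = 0.034 and 0.013). Both were tested only through their long-term level, so these p-values are not independent of that choice. In short-term libraries none of the 4 passed 0.339 FPKM.

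The remaining rises were small or low. LNC_003335, with 4 exons, went from 37.9, 22.2 and 22.8 FPKM in control to 55.6, 54.9 and 43.5 FPKM in long-term libraries (relative log2 change 0.64 ± 0.22, adjusted p = 0.040). LNC_001566 had 0.735, 0.0033 and 0.0072 FPKM in control and 2.36, 1.52 and 1.96 FPKM in long-term libraries (adjusted p = 0.044). LNC_001555 reached at most 0.931 FPKM (adjusted p = 0.040). LNC_004677, the remaining riser, is described with its locus below.

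Of the 5 members that fell after 7 days, LNC_005332 and LNC_004949 were given above. LNC_004470 (NC_025818.2:37525714-37538249) had 1.23, 2.19 and 2.23 FPKM in control, 1.22, 2.03 and 1.26 in short-term and 0.469, 0.449 and 0.643 in long-term libraries. All long-term libraries were below all controls, while short-term libraries overlapped with control (relative log2 change after 7 days -1.17 ± 0.22, adjusted p = 0.037). LNC_003852 went from 0.441, 1.12 and 2.07 FPKM in control to 0.153, 0 and 0.0620 FPKM in long-term libraries (relative log2 change -1.24 ± 0.25, adjusted p = 0.048). It was tested only through its control level, so its p-value is not independent of that choice. LNC_004675 is described with its locus.

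**Figure D3:**
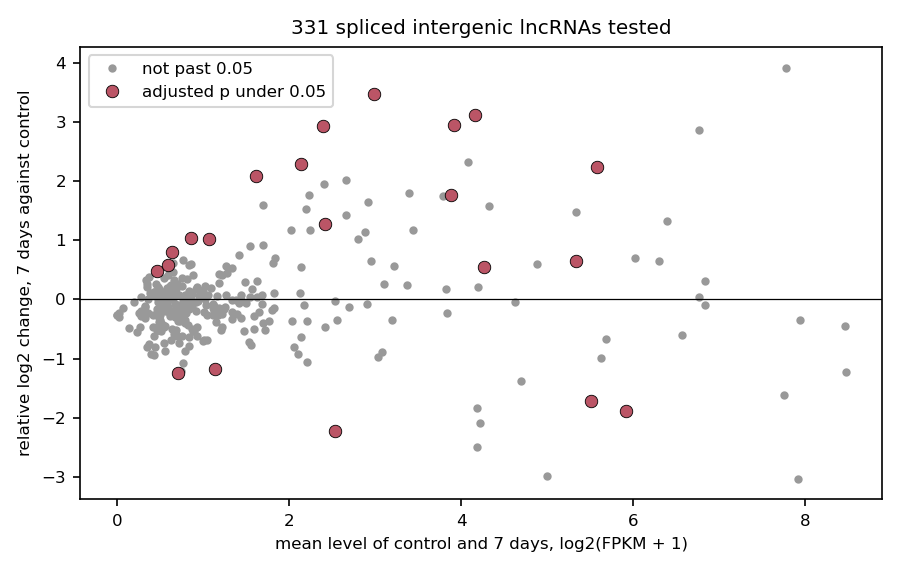
Relative log2 change after 7 days (vertical axis, fitted change minus the median of all genes) against the mean level of control and long-term libraries (horizontal axis, log2(FPKM + 1)) for the 331 members tested, each a point. The 21 members past an adjusted p of 0.05 run from LNC_004675 at -2.22 to LNC_004747 at 3.47, and some members with larger changes at high levels did not pass. For members at 0 in all controls the plotted change depends on the added 1 and is no measure of size.

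Among the largest called changes after 7 days, 7 kept an adjusted p under 0.05 without each of the 9 libraries in turn. These were the changes of LNC_004747, LNC_004275, LNC_005044, LNC_005725, LNC_004237, LNC_005332 and LNC_004949. LNC_001673 lost its call without control replicate 2 (0.057) or long-term replicate 2 (0.056). LNC_001341 lost it without any one of control replicates 2 and 3 and long-term replicates 1 and 2 (0.051 to 0.090). LNC_003936, LNC_004675, LNC_001305, LNC_004470, LNC_003852, LNC_002280 and LNC_004677 lost theirs in 5 to 8 of the 9 fits. In number, 8 members passed without control replicate 2, 9 without control replicate 3, 11 without long-term replicate 2, 12 without short-term replicate 3, 13 without short-term replicate 1 and 26 without control replicate 1.

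Between long-term and short-term leaves 1 member passed, 0.302% of those tested, against 0.157% of all lncRNAs, and 0 members fell against 0% of all lncRNAs. By limma without adjustment, 35 members were higher and 20 lower at p under 0.05, against 10.4% and 5.38% of all lncRNAs. The member was LNC_005725, whose long-term libraries (3.52 to 4.99 FPKM) were all above its short-term ones (0.272 to 1.35 FPKM), with a relative log2 change of 1.50 ± 0.25. Its adjusted p of 0.04995 lay just under the threshold, and the call held in 2 of 9 fits that left out 1 library. The adjusted p was 0.10, 0.11 and 0.13 without control replicates 1, 2 and 3, 0.16 and 0.14 without short-term replicates 1 and 3, and 0.051 and 0.065 without long-term replicates 2 and 3. The next in order were LNC_005044 (adjusted p = 0.084) among higher and LNC_005459 (adjusted p = 0.10) among lower members. LNC_005459 had 0.497, 0.397 and 0 FPKM in control, 1.93, 0.777 and 1.76 in short-term and 0.0308, 0 and 0.110 in long-term libraries, so that the short-term libraries were above all others, and control and long-term libraries overlapped. LNC_005460, from the same locus, had 1.40, 0.667 and 2.70 FPKM in short-term and 0.0710, 0.176 and 0.0879 in long-term libraries. LNC_005513 and LNC_001243 were also lower in all long-term than in all short-term libraries, with short-term values of 1.20 to 1.64 FPKM and 0.565 to 1.09 FPKM.

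Several results looked different when the FPKM of all lncRNA transcripts of a locus was summed. Transcripts of other types listed under the same locus were not in these sums. At locus level, 284 loci with members were tested. After 3 days 1 rose and 1 fell, against 0.275% and 0.220% of all lncRNA loci, and after 7 days 17 rose and 5 fell, against 4.17% and 4.45% of all 1821 lncRNA loci. Of the 19 loci with a called member after 7 days, 16 were also called as a locus, and 6 loci were called only by their sum. After 3 days, the calls of LNC_005395 and LNC_004949 were not matched by a call of their loci.

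At XLOC_025406 the listed levels of the isoforms moved in opposite directions, the only locus where members were called both ways. LNC_004675 had 16.2, 5.51 and 3.68 FPKM in control, 2.20, 5.40 and 4.91 in short-term and 1.26, 0.902 and 1.06 in long-term libraries. The long-term libraries were all below control (relative log2 change -2.22 ± 0.45, adjusted p = 0.033). LNC_004677 had 12.3, 11.5 and 15.0 FPKM in control and 24.9, 27.4 and 18.8 FPKM in long-term libraries, all above control (relative log2 change 0.56 ± 0.19, adjusted p = 0.035). LNC_004676 had 1.19, 14.0 and 14.7 FPKM in control and 36.1, 23.0 and 25.3 FPKM in long-term libraries, which did not overlap either, but did not pass (adjusted p = 0.14).

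In control replicate 1 LNC_004675 held 54.6% of the locus, far more than LNC_004676. In control replicates 2 and 3 the order was reversed, with 45.1% and 44.0% for LNC_004676 and at most 17.8% for LNC_004675. The sum of these 2 isoforms was nearly the same in the 3 controls, at 17.4, 19.5 and 18.4 FPKM. The 3 isoforms share their ends, length and exon number, and the tables give no exon borders that tell them apart, so the level of each is less certain than their sum. The locus summed to 29.8, 30.9 and 33.4 FPKM in control, 30.9, 35.5 and 27.8 in short-term and 62.3, 51.3 and 45.1 in long-term libraries. Only the long-term sums stood above all others, and the locus rose (relative log2 change 0.46 ± 0.17, adjusted p = 0.031) while LNC_004675 fell.

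**Figure D4:**
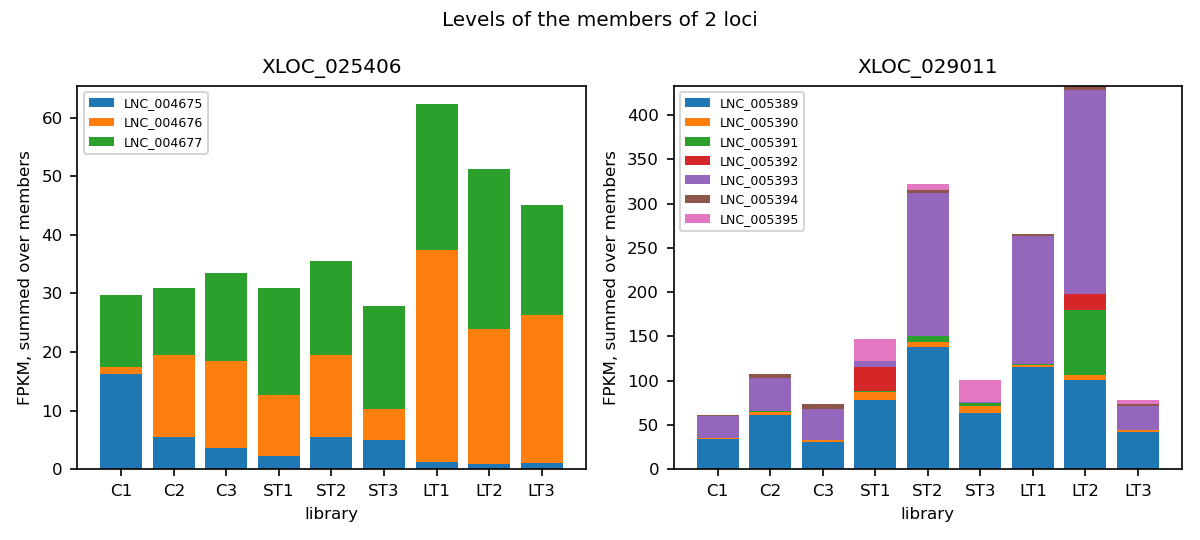
FPKM of the 3 isoforms of XLOC_025406 (left) and the 7 isoforms of XLOC_029011 (right), stacked per library (C control, ST 3 days, LT 7 days). At XLOC_025406 the total is between 27.8 and 35.5 in control and short-term libraries and between 45.1 and 62.3 in long-term libraries, while LNC_004675 is smallest there. At XLOC_029011 LNC_005395 is seen in the 3 short-term libraries and in long-term replicate 3.

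XLOC_029011, with 7 isoforms over NC_025820.2:39179759-39217739, also had isoforms whose listed levels traded off between libraries, inside a group as well. Whether isoforms were exchanged or shared reads were divided differently was not tested at either locus. LNC_005393 and LNC_005395 start 4 bases apart, end at the same base and have introns of the same length (22348 bases). LNC_005393 had 24.3, 37.1 and 35.1 FPKM in control, 6.05, 161 and 0.350 in short-term and 144, 231 and 26.7 in long-term libraries. In short-term replicates 1 and 3, where LNC_005395 was near 25.7 FPKM, LNC_005393 was lowest. Summed, the pair had 24.3, 37.1 and 35.1 FPKM in control and 31.6, 167 and 26.1 FPKM in short-term libraries, so that the groups overlapped although LNC_005395 alone did not. LNC_005389, from the upstream part of the locus, carried 23.3% to 62.3% of the summed FPKM in every library. The locus as a whole had 61.6, 108 and 73.1 FPKM in control, 147, 322 and 101 in short-term and 265, 433 and 77.9 in long-term libraries, and did not pass after 7 days (adjusted p = 0.17).

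XLOC_026785 holds LNC_004948, LNC_004949 and LNC_004950, which share both ends and differ by at most 1 base in length. LNC_004948 had 14.8, 25.6 and 31.4 FPKM in control and 14.3, 15.9 and 1.02 FPKM in long-term libraries, and LNC_004950 had 49.0, 38.9 and 56.8 FPKM in control and 13.1, 0 and 28.2 FPKM in long-term libraries. The fall at 7 days was thus seen in the sum of the locus too (relative log2 change -1.78 ± 0.19, adjusted p = 0.0021). After 3 days LNC_004950, at 48.2, 36.7 and 36.4 FPKM, overlapped with control, unlike LNC_004949.

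Loci called only by their sum included XLOC_026424 and XLOC_026425, which overlap by up to 24970 bases on the minus strand of NC_025819.2. XLOC_026424 summed to 7.43, 0.491 and 0.0614 FPKM in control, 4.95, 4.97 and 7.87 in short-term and 8.11, 15.5 and 20.8 in long-term libraries (adjusted p = 0.038). XLOC_026425 summed to 6.26, 0.274 and 0.165 FPKM in control, 3.70, 2.03 and 3.37 in short-term and 10.3, 22.9 and 21.7 in long-term libraries (adjusted p = 0.015). In both, control replicate 1 was above the other controls by over 10-fold. XLOC_007210, with the single transcript LNC_001306, showed the same order, with 152, 6.44 and 3.94 FPKM in control, 46.5, 88.2 and 83.9 in short-term and 136, 389 and 622 in long-term libraries. Control replicate 1 lay within the range of long-term libraries there, and the locus passed only in the fit by locus (adjusted p = 0.044). XLOC_030694 rose from 1.67 to 2.07 FPKM in control to 4.81 to 6.05 FPKM in long-term libraries (adjusted p = 0.0077), with LNC_005670 the higher isoform in control and LNC_005669 in both alkaline groups.

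In 38 loci at least 2 members passed the filter. The isoform with the highest FPKM was the same one in all 9 libraries in 8 of them. The leading isoform by group mean differed between control and long-term leaves in 11 loci. Besides XLOC_025406, XLOC_029011, XLOC_026424, XLOC_026425 and XLOC_030694 these were XLOC_000929, XLOC_005824, XLOC_008737, XLOC_009257, XLOC_009663 and XLOC_011083, whose sums stayed at or below 2.93 FPKM in every library. XLOC_014891, with 5 isoforms of up to 8 exons, had sums of 3.31 to 4.36 FPKM in control, 4.57 to 5.22 in short-term and 3.96 to 6.17 in long-term libraries. Its short-term sums were above all controls without passing the test (adjusted p = 0.56). LNC_002666 led by mean in each group, but 4 different isoforms led in single libraries.

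The most abundant members differed in how steady they were. LNC_005678 had 410, 362 and 346 FPKM in control, 332, 388 and 389 in short-term and 294, 317 and 379 in long-term libraries. LNC_005677, an isoform whose 5′ end lies 29 bases away, had 166 to 300 FPKM throughout. In contrast, LNC_005745 had 487, 19.4 and 651 FPKM in control, 745, 17.9 and 25.1 in short-term and 33.4, 902 and 27.1 in long-term libraries. Its libraries were either at 487 FPKM and above or at 33.4 FPKM and below, and both levels occurred in each group.

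LNC_005521 (NC_025820.2:15424413-15426238, minus strand, 364 nucleotides) was listed at 0 in 6 libraries and had 1187 and 993 FPKM in short-term replicates 2 and 3 and 649 FPKM in long-term replicate 2. The value of 1187 FPKM was the highest of any member, and the other libraries of the same groups were at 0. Over all 43133 transcripts of the series, 22 were above 0 in just these 3 libraries, and LNC_005521 and LNC_005195 were the 2 with more than 1 FPKM in all 3. LNC_000995 had 328, 334 and 444 FPKM in control, 194, 181 and 5.83 in short-term and 146, 4.77 and 184 in long-term libraries. It was low in 1 library of each alkaline group. LNC_005674 was at 3.20 FPKM in long-term replicate 1 and between 137 and 410 FPKM in the other 8 libraries.

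**Figure D5:**
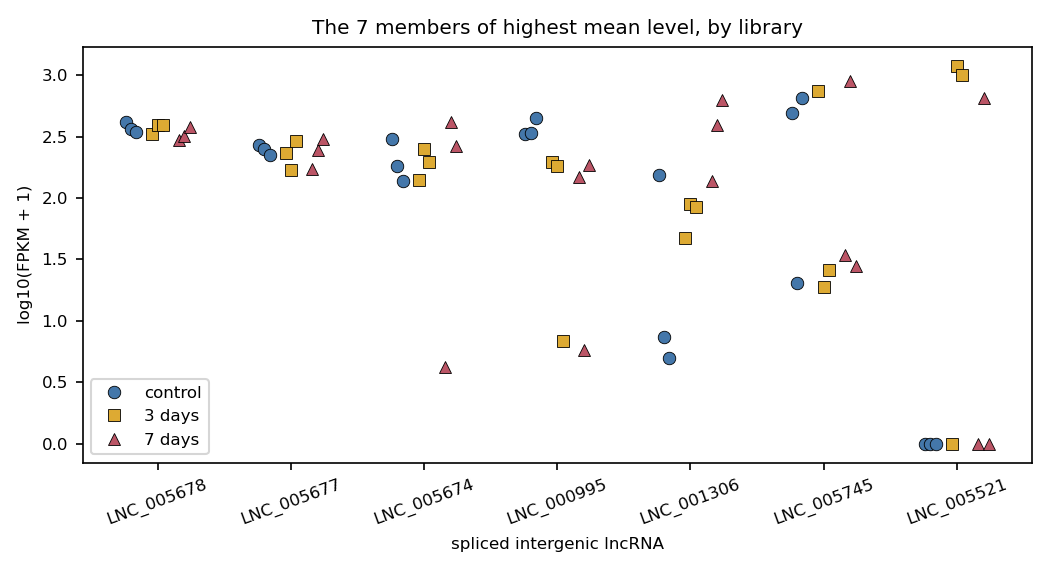
Levels of 7 of the most abundant members, as log10(FPKM + 1) in each of 3 control (circles), 3 short-term (squares) and 3 long-term (triangles) libraries. LNC_005678 and LNC_005677 stay within 166 to 410 FPKM in all 9 libraries, whereas LNC_005745 and LNC_005521 fall into a high and a low level inside the same group.

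Such spread inside a group was counted for every member that reached 10 FPKM in some library. Of 63 such members, 27 (42.9%) had within 1 group a library with at least 10 FPKM and another more than 10-fold lower. The same was true of 4 of 112 single-exon lncRNAs (3.57%) and of 249 of 6587 protein-coding transcripts (3.78%). Among members that were the only one of their locus, it was 8 of 28 (28.6%), and among members of loci with several, 19 of 35 (54.3%). Summed by locus, it was 10 of 43 (23.3%). These shares describe transcripts of the same 9 libraries and were not tested.

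Control replicate 1 held the most members that stood above both other libraries of their group. In that library 13 members at or above 1 FPKM were more than 5-fold above both other controls (9.92%), against 4 in control replicate 2 (3.20%), 5 in control replicate 3 (4.55%) and 6 to 9 in the alkaline-challenged libraries. Among protein-coding transcripts it was 516 in control replicate 1 (3.62%) and 101 to 155 in the other 8 libraries. Among single-exon lncRNAs short-term replicate 3 had the most, 18 (5.79%), followed by control replicate 1 with 16 (5.37%) and long-term replicate 3 with 14 (4.19%). Of the 13 members, LNC_001305, LNC_001869, LNC_002855, LNC_003816 and LNC_004857 were, like LNC_001306, higher in long-term replicates 2 and 3 than in any other library. LNC_003816, for instance, had 22.7, 1.02 and 0.230 FPKM in control and 12.5, 27.7 and 31.1 FPKM in long-term libraries.

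Some members overlapped on opposite strands. There were 27 such pairs of members, with 40 members in them, and in 9 pairs both partners had the same number of exons and the same total intron length. LNC_005521 on the minus strand was paired with LNC_005195 on the plus strand (NC_025820.2:15424417-15426234). Both ends of the pair lay 4 bases apart, and both introns measured 1462 bases. LNC_005195 had 11.7, 9.04 and 4.89 FPKM in the same 3 libraries where LNC_005521 was above 0, which is 0.982%, 0.911% and 0.753% of its partner, and it was at 0 in the same 6 libraries.

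LNC_000690 (plus strand) and LNC_000995 (minus strand) had the same lowest position on NC_025813.2 and shared an intron length of 1495 bases. Here the levels did not run in parallel. LNC_000690 had 3.75, 2.99 and 3.74 FPKM in control replicate 1, short-term replicate 3 and long-term replicate 1 and 0 in the other 6 libraries. LNC_004659 shared a length of 465 bases with LNC_004949 and LNC_004950 and stayed at or below 2.99% of either wherever that partner was above 0. LNC_005345 shared 8859 bases with LNC_005677 and LNC_005678 and stayed at or below 1.67%. The libraries keep the strand by the study's methods, and the intron borders were not used here.

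The genes within 10 kb of a member were called at shares close to those of all genes. After 3 days 0 of 314 tested genes passed in limma, against 0.0759% of all 14491 genes that rose and 0.0276% that fell, and 34 were higher and 23 lower at an unadjusted p under 0.05, against 15.1% and 7.1% of all genes. After 7 days 90 rose (28.7%) and 21 fell (6.69%), against 31.1% and 7.23% of all genes. The median fitted log2 change was 0.27 in these genes and 0.26 in all. After scaling by median ratios, 27 rose and 38 fell, so that their balance depends on the scaling. Without control replicate 3 or without long-term replicate 2, 42 genes passed, and without control replicate 2, 55.

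Of 14 pairs of a member called after 7 days and a tested gene within 10 kb, 4 had a called gene, and in these 4 the directions matched. Over all genes tested, 31.1% rose and 7.23% fell, so called genes near called members are to be found without any link. Most called members and most called genes rose, and LNC_003936 gave more than 1 of the pairs. Whether members and neighbours moved together was not tested. LOC104897840, 8048 bases from LNC_003852, fell with it, from 9.15, 14.4 and 11.4 FPKM in control to 6.21, 4.08 and 4.04 FPKM in long-term libraries (relative log2 change -1.39 ± 0.19, adjusted p = 0.0058). LOC104898389 and LOC104898390, on both sides of LNC_003936, rose with it (adjusted p = 0.018 and 0.027). LOC104889453, 7113 bases from LNC_001555, had 4.57, 1.10 and 0.588 FPKM in control and 3.46, 7.47 and 21.4 FPKM in long-term libraries (adjusted p = 0.048), which overlapped.

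LOC104898212, an alanine-glyoxylate aminotransferase by its product name, lies 9786 bases downstream of LNC_004237 on the opposite strand. It had 8.49, 6.10 and 8.04 FPKM in control and 20.0, 25.4 and 9.27 FPKM in long-term libraries and did not pass (adjusted p = 0.056). LOC104889522, a beta-tubulin, 2997 bases upstream of LNC_001566, stayed at 93.0 to 97.3 FPKM in control and 74.4 to 136 FPKM in long-term libraries (adjusted p = 0.68). LOC104904249, named as an epimerase family protein, 7095 bases upstream of LNC_005674, fell from 16.4, 19.8 and 22.6 FPKM in control to 12.2, 10.1 and 10.1 FPKM in long-term libraries (relative log2 change -1.06 ± 0.17, adjusted p = 0.012), while LNC_005674 itself was not called.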

How the data were processed

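The authors deposited FPKM per transcript for 9 leaf libraries, made from strand-specific, rRNA-depleted RNA. By the study's methods, reads were aligned with HISAT2 and assembled with StringTie 1.3.1, while FPKM is credited to Cuffdiff. The sources leave unsettled which of these made the values, and name no genome build. Isoforms that share most bases divide their reads by an estimate. Transcripts averaging above 0.5 FPKM in any of the 3 groups were fitted together as log2(FPKM + 1) with limma 3.58.1 (trend, R 4.3.3), and p-values were adjusted by Benjamini-Hochberg over all lncRNAs tested. Genes, as sums of their protein-coding transcripts' FPKM, were fitted in the same way. So were lncRNA loci, as sums of their lncRNA transcripts' FPKM. Counts per library were compared with exact permutation tests. Python 3.11.15, numpy 2.4.6, pandas 2.3.3 and matplotlib 3.10.9 were used. The scripts were tested on simulated data. Up to 10 members per direction with the largest called, non-overlapping changes were named, or the 5 with the smallest p where fewer than 3 passed, with the most abundant members and the loci whose isoforms differed. Members outside this rule were chosen after their values were seen. The members and lists were chosen with earlier results of these data known. Alternatives were other pseudocounts (0.1 and 0.5), filters, scalings, fits and a replicate block, and leaving out each library. Columns with the authors' comparisons were not used.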

Additional observations from a re-analysis of the deposited data

Results flagged for a closer look

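LNC_005725 differed between the alkaline groups by a test of the difference itself. Its fitted log2 change from short-term to long-term leaves was 1.65 (limma adjusted p = 0.04995), and all 3 long-term libraries were above all 3 short-term ones. The call held under 4 of 13 other settings and in 2 of 9 fits that each left out 1 library, with an adjusted p of up to 0.30.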

How the results depend on the processing

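The fitted changes of single members chosen by the naming rule kept their direction under each alternative run. Single loci and neighbouring genes were not refitted by name. After 3 days, where 4 members passed in limma, the number was 23 without a filter, 2 after median-ratio scaling or scaling to the same protein-coding FPKM, 1 without the trend, with an unmoderated F-test or with all transcripts in 1 fit, 2 per gene identifier, and 0 to 3 without each library in turn. After 7 days, where 21 passed, it was 43 without a filter, 2 with the F-test, 11 with only the 2 groups compared, 32 with all transcripts in 1 fit and 8 to 26 without each library. Between long-term and short-term leaves, where 1 passed, it was 34 without a filter, 0 with a pseudocount of 0.1 or 0.5, after median-ratio or protein-coding scaling, with array weights, the F-test, only the 2 groups or all transcripts in 1 fit, and 0 to 3 without each library. These numbers need not hold the same members. With the F-test, the 1 member after 3 days was LNC_005253, which was not among the 4. Of the 2 members after 7 days, 1 was among the 21.

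For genes within 10 kb the number after 3 days was 40 with array weights, 4 within 100 kb and 0 to 8 without each library, against 0. After 7 days, against 111, it was 65 after median-ratio scaling (27 rose and 38 fell, against 90 and 21), 0 with the F-test, 59 with only the 2 groups, 912 within 100 kb and 42 to 124 without each library. The long-term excess of 46.3 members over 0.5 FPKM became 15.7 after median-ratio scaling and 68.3 at the same total FPKM, where the difference between alkaline groups was 37.3 instead of 10.3. The last turned to -6.67 after median-ratio scaling, and the summed FPKM of members after 7 days turned from an excess of 688.5 over control to -10.8, neither of which had passed its test. Without each library the excesses in number were 25.7 to 43.2 after 3 days, 34.3 to 56.8 after 7 days and -1.67 to 20.8 between the alkaline groups. The members called after 7 days split into 13 that rose and 6 that fell after median-ratio scaling and 19 and 3 at the same total FPKM.

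With the replicate number as a block, 3 members passed after 3 days, 15 after 7 days and 0 between the alkaline groups, and 61 genes after 7 days. Same-numbered libraries did not deviate together (correlations from -0.20 to 0.03), so the numbers were not taken as pairs. The causes of these differences were not tested. With no read counts, the precision of low FPKM is unknown.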

Other observations

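The summed FPKM of all members was 3537, 2564 and 3315 in control replicates 1 to 3, 3165, 4195 and 3540 in short-term and 2765, 5236 and 3480 in long-term libraries. The groups overlapped, and the exact permutation test, two-sided, gave p = 0.40 after 3 days and p = 0.50 after 7 days against control, where 0.10 is the smallest value possible.

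LNC_005746 was at 38.3 FPKM in control replicate 1 and 41.6 FPKM in long-term replicate 2 and was listed at 0 in the other 7 libraries.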
